A study of Oryza sativa with 7 samples.

Results

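Crown root primordia of rice at the stage of initiation were compared with ground tissue of the stem base, the control. The comparison uses 5 of the 7 libraries of the series: initiation replicates 1, 2 and 3 and control replicates 1 and 2. All came from wild-type seedlings of the indica cultivar IR64, 6 days old and grown on MS medium, with no treatment or transgene named. Cells were cut from stem base sections with a laser under a microscope (laser capture microdissection), and cDNA from the little RNA they gave was amplified with a low-input kit before sequencing. The labels give the captured cells only as initiating primordia and as ground tissue, and do not say which cell layers the ground tissue held or whether libraries came from separate plants. The 2 libraries of primordia at outgrowth are used here for their values of the same genes and for the common estimate of spread.

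Crown roots are roots that arise from the stem, and they form most of the root system of rice. They begin where auxin accumulates in cells of the stem base beside the peripheral vascular tissue, which then divide and build a new root meristem. Auxin acts by the removal of Aux/IAA repressors from auxin response factors, cytokinin acts against auxin in this process, and WUSCHEL-related homeobox (WOX) and GRAS transcription factors set up the stem cell centre and the cell layers of the root.

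The members described are rice genes of known function in 34 lists of 356 loci. Locus identifiers were paired with gene names from published locus assignments, and a name was used only where a RefSeq gene table held that symbol on the same chromosome and in the same gene order, which 259 loci in 32 lists met. The other loci are not described, among them all PLETHORA and BABY BOOM genes and CROWN ROOTLESS1, so nothing is said here about these crown root regulators. Of the 259, 205 had enough reads to be tested, 30 had too few and 24 had no read in any library.

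Replicates 1 and 3 of initiation differed less than sampling noise would make them, so they were counted as 1 sample, their mean, and each group had n = 2. The squared differences between them were 0.402 times those of counting noise, against 28.8 times between initiation replicates 1 and 2 and 52.5 times between the control replicates. The 7 libraries held 8351775 to 25448025 counts. Levels are CPM, the reads of a gene in every 1000000 reads of its library, with the library size multiplied by its TMM scaling factor (0.955 to 1.04). Each pair of initiation values below gives the averaged sample and then replicate 2. CPM is not scaled by gene length, so levels are compared between groups and never between genes. A gene was called when edgeR's quasi-likelihood test, fitted over all 18830 genes tested, gave an adjusted p below 0.05, and log2 fold changes are initiation over control, ± SE. Since separate plants are not named, p-values reflect only how these samples vary, which may be technical. In bulk samples, fewer cells of a type and less RNA per cell cannot be told apart.

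Over all genes tested, 30.4% were called, 14.4% higher and 16.1% lower at initiation. Groups did not overlap for 64.2%, so such separation, given below for single genes, was common over all genes. The median log2 fold change was -0.05. Of the 205 list members tested, 51 rose and 72 fell (60.0% called). The lists were drawn up with earlier results of these data known, so this share supports nothing about them. The same holds for the counts and medians of single lists below. Among the lists with at least 4 members tested, each of 9 DNA replication genes rose and each of 8 aquaporins and 4 phenylpropanoid genes fell, as the plot of calls by gene list shows. Of these aquaporins, PIP2;2 and PIP2;4 had enough reads to be tested through the control libraries alone, so they could only come out lower. Control replicate 1 had no read for 699 of 17559 genes for which the other control library predicted at least 10 (3.98%), so folds against an absent control read may be too high. By the same measure the averaged initiation sample lacked 1.16% and initiation replicate 2 lacked 2.45%. Folds against an absent initiation read have the same limit.

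**Figure D1:**
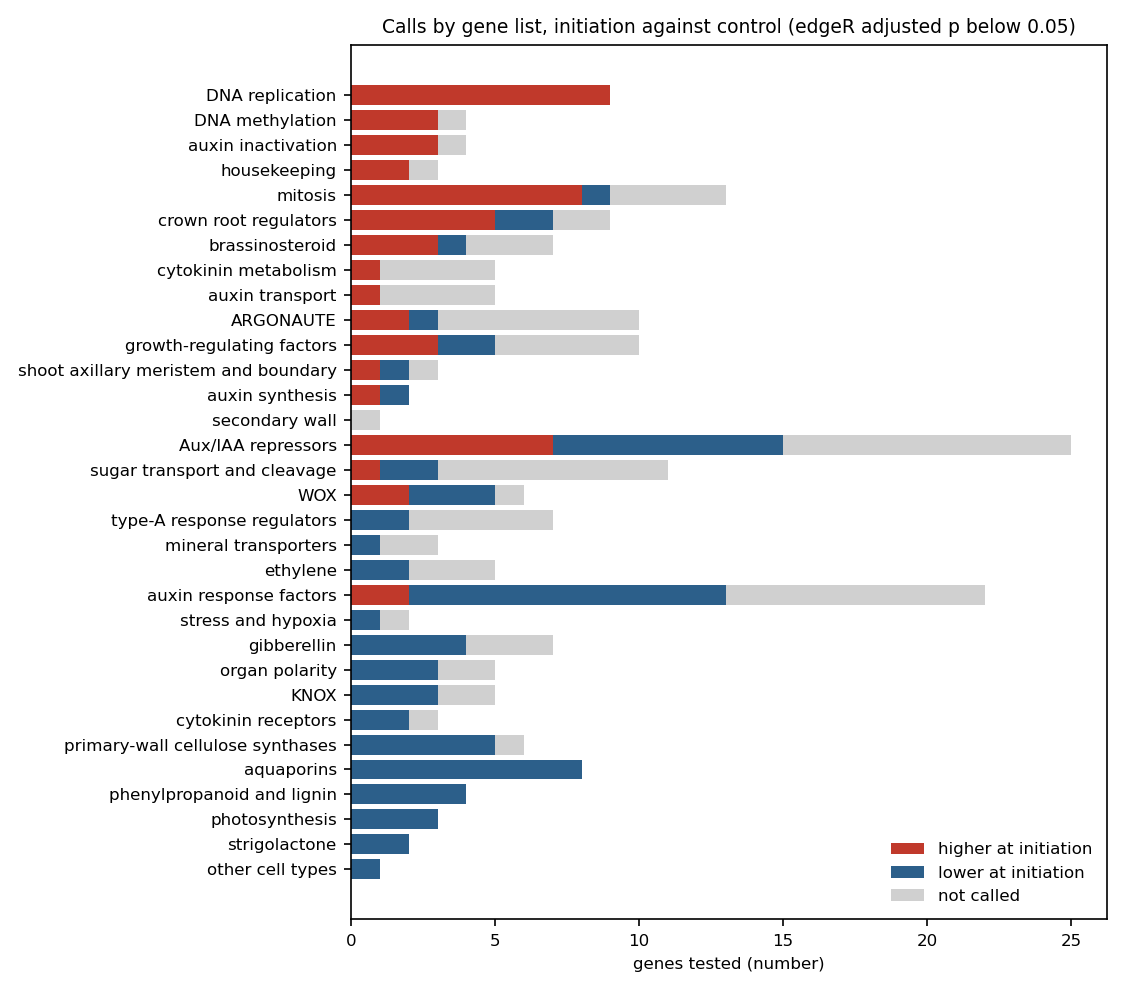
Number of genes tested in each of the 32 gene lists (horizontal axis), split into genes called higher at initiation (red), called lower (blue) and not called (grey) by edgeR at an adjusted p below 0.05. Lists run from those with mostly higher calls at the top, where DNA replication has 9 of 9 higher, to those with only lower calls at the bottom, where aquaporins have 8 of 8 lower.

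Markers were read first as a check of the labels. QHB (LOC_Os01g63510), a WOX factor of the root quiescent centre, stood at 165 and 247 CPM at initiation, against 1.27 and 14.6 CPM in control (log2 fold change 4.59 ± 0.81, edgeR adjusted p = 0.00553). The lowest initiation sample was far above the highest control sample. WOX11, which promotes crown root emergence and growth and had been set as a primordium marker, was the other way round, as given below. Summed over 6 KNOX genes, markers of the shoot meristem, the level was 391 and 428 CPM at initiation, against 897 and 1041 CPM in control. Over 4 photosynthesis genes, markers of green tissue of which 3 had reads at initiation, it was 3.20 and 3.77 CPM at initiation, against 207 and 589 CPM in control, and over 4 secondary wall genes 14.9 and 8.72 CPM at initiation, against 22.5 and 7.83 CPM in control, where the groups overlapped. Markers of the endodermis went both ways. The GRAS factors SCR1 and SCR2, described below, summed to 349 and 278 CPM at initiation, against 22.9 and 37.9 CPM in control, and CASP1 (LOC_Os04g58760), a Casparian strip protein of differentiated endodermis, had no read at initiation, against 5.20 and 4.74 CPM in control. ROC1, a marker of the epidermis, had none in any library. The control libraries thus held transcripts of shoot meristem and green tissue markers and of CASP1, and their part in the results below was not tested. QHB had a log2 fold change of 7.38 without control replicate 2.

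Among the crown root regulators, genes of the root stem cell centre and of the cell layers around it were higher in primordia. Of 9 members tested, 5 rose, 2 fell and 2 did not pass the test, and without initiation replicate 2 the counts were 3 and 1 of 8 tested. Without the averaged initiation sample or control replicate 2, 1 fell. The GRAS factors SCR1 and SCR2, which pattern ground tissue and endodermis, rose: SCR1 (LOC_Os11g03110) had 212 and 165 CPM at initiation, against 11.7 and 24.4 CPM in control (log2 fold change 3.36 ± 0.35, edgeR adjusted p = 0.000777), and SCR2 (LOC_Os12g02870) had 137 and 114 CPM at initiation, against 11.2 and 13.5 CPM in control (log2 fold change 3.34 ± 0.24, edgeR adjusted p = 0.000215). In both genes every initiation sample lay above every control sample by a wide margin. They are close copies on chromosomes 11 and 12, so reads may have been divided between them. Their partners SHR1 and SHR2, from which SCARECROW factors take their cue in Arabidopsis, did not pass the test. SHR1 (LOC_Os07g39820) stood at 250.3 and 460.5 CPM at initiation, against 256 and 274 CPM in control (log2 fold change 0.42 ± 0.28, edgeR adjusted p = 0.282), with overlapping groups. Its value depended on which initiation sample was kept: the log2 fold change was 0.80 without the averaged initiation sample, which passed the test (edgeR adjusted p = 0.0387), and -0.08 without initiation replicate 2. SHR2 (LOC_Os03g31880) stood at 47.1 and 57.8 CPM at initiation, against 65.8 and 69.6 CPM in control (log2 fold change -0.37 ± 0.23, edgeR adjusted p = 0.263). WOX10 (LOC_Os08g14400), a further WOX factor, had 36.6 and 60.2 CPM at initiation, against 4.39 and 1.15 CPM in control (log2 fold change 4.21 ± 0.74, edgeR adjusted p = 0.0054). The cytokinin oxidase CKX4 (LOC_Os01g71310), which breaks cytokinin down and is known to act in crown root formation, was detected at a low level, with 1.38 and 1.81 CPM at initiation, against no read in control (edgeR adjusted p = 0.0345, at least 18.5-fold higher). A test needed 1 CPM in 2 samples, which CKX4 reached only in the initiation samples, so with either left out it was not tested. WOX10 did not pass without initiation replicate 2 (edgeR adjusted p = 0.0505). CKX4 missed the threshold without outgrowth replicate 1 or 2 (edgeR adjusted p = 0.0614 and 0.0679).

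The 2 crown root regulators that fell were WOX11 and RR2. WOX11 (LOC_Os07g48560) had 0.125 and 1.67 CPM at initiation, against 11.6 and 23.5 CPM in control (log2 fold change -4.29 ± 1.34, edgeR adjusted p = 0.0448), so that both control libraries held more of it than either initiation sample. RR2 (LOC_Os02g35180), a type-A cytokinin response regulator that WOX11 is known to repress in crown roots, had 3.70 and 8.93 CPM at initiation, against 69.1 and 56.6 CPM in control (log2 fold change -3.32 ± 0.50, edgeR adjusted p = 0.00285). The groups were far apart in RR2, while the WOX11 call was near the threshold. WOX11 lost its call without the averaged initiation sample, initiation replicate 2 or control replicate 2 (edgeR adjusted p = 0.151, 0.0579 and 0.077). WOX11 had a log2 fold change of -7.04 without initiation replicate 2.

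The WOX family was split between the groups. Of 8 members, 2 (WOX5 and WOX7) had no read in any library, and of the 6 tested QHB and WOX10 rose while WOX4, WOX8 and WOX11 fell. Without control replicate 2, 1 of 5 tested fell. WOX4 (LOC_Os04g55590), which is known from the shoot meristem and vascular tissue, had 0.502 and 0.279 CPM at initiation, against 79.4 and 105 CPM in control (log2 fold change -7.84 ± 0.46, edgeR adjusted p = 0.000215). It was nearly absent from the primordia. WOX4 had enough reads to be tested through the control libraries alone, so it could only come out lower. WOX8 (LOC_Os01g60270) stood at 56.4 and 50.9 CPM at initiation, against 167 and 151 CPM in control (log2 fold change -1.56 ± 0.19, edgeR adjusted p = 0.00135). WOX6 (LOC_Os03g20910) had 4.08 and 22.5 CPM at initiation, against 6.01 and 6.11 CPM in control (log2 fold change 1.13 ± 0.79, edgeR adjusted p = 0.315), where the initiation samples lay on either side of control, and its log2 fold change was -0.57 without initiation replicate 2.

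KNOX homeobox factors, which maintain the shoot meristem, were lower at initiation or did not pass the test. Of 6 members 5 were tested, and 3 fell, with a median log2 fold change of -2.24 against -0.05 over all genes tested. OSH1 (LOC_Os03g51690) had 73.4 and 71.1 CPM at initiation, against 401 and 417 CPM in control (log2 fold change -2.50 ± 0.18, edgeR adjusted p = 0.000215), and OSH6 (LOC_Os01g19694) had 17.8 and 40.5 CPM at initiation, against 140.0 and 136 CPM in control (log2 fold change -2.24 ± 0.37, edgeR adjusted p = 0.00418). OSH15 (LOC_Os07g03770) fell less, with 196 and 200.1 CPM at initiation, against 259 and 357 CPM in control (log2 fold change -0.64 ± 0.20, edgeR adjusted p = 0.0448). Libraries of the 2 groups did not overlap in any of these 3 genes, yet both initiation samples held reads of each. OSH15 did not pass without the averaged initiation sample, initiation replicate 2, control replicate 2, outgrowth replicate 1 or 2 (edgeR adjusted p = 0.145, 0.145, 0.153, 0.0974 and 0.0973). OSH15 had a log2 fold change of -0.34 without control replicate 2.

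Genes of shoot branching and leaf initiation pointed both ways. FON1 (LOC_Os06g50340), a CLAVATA1-like receptor kinase that limits meristem size, had no read at initiation, against 11.2 and 3.02 CPM in control (edgeR adjusted p = 0.00944, at least 71.8-fold lower). PLA1 (LOC_Os10g26340), a cytochrome P450 known for setting the rate of leaf initiation, had 16.5 and 45.8 CPM at initiation, against 3.12 and 8.14 CPM in control (log2 fold change 2.44 ± 0.67, edgeR adjusted p = 0.0283). Reads of FON1 were found in control alone among these 4 samples, and PLA1 was higher in both initiation samples, which differed clearly from each other. They were 2 of 3 members of this list tested. PLA1 missed the threshold without initiation replicate 2, control replicate 1, outgrowth replicate 1 or 2 (edgeR adjusted p = 0.227, 0.0595, 0.0515 and 0.0517). FON1 had enough reads to be tested through the control libraries alone, so it could only come out lower. With either control library left out it reached 1 CPM in fewer than 2 samples and was not tested. The third, IPA1, had a log2 fold change of -0.83 without control replicate 1. PLA1 had a log2 fold change of 1.54 without initiation replicate 2.

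The HD-ZIP III factors, which set the upper side of leaves and the pattern of the vascular tissue, fell in 3 of 4 members tested. HB1 (LOC_Os03g01890) had 62.7 and 90.6 CPM at initiation, against 275 and 289.8 CPM in control (log2 fold change -1.88 ± 0.22, edgeR adjusted p = 0.00122), HB2 (LOC_Os10g33960) had 30.4 and 47.8 CPM at initiation, against 221 and 141 CPM in control (log2 fold change -2.21 ± 0.33, edgeR adjusted p = 0.00271), and HB3 (LOC_Os12g41860) had 206 and 172 CPM at initiation, against 840.3 and 556 CPM in control (log2 fold change -1.88 ± 0.24, edgeR adjusted p = 0.00153). In each of these 3 genes both control libraries were above both initiation samples. The 4th, HB5 (LOC_Os01g10320), did not pass the test, with 2.89 and 5.37 CPM at initiation, against 11.2 and 8.63 CPM in control (log2 fold change -1.26 ± 0.66, edgeR adjusted p = 0.184). SLL1 (LOC_Os09g23200), a KANADI factor and the only other organ polarity gene tested, had 4.39 and 2.44 CPM at initiation, against 0 and 1.22 CPM in control (log2 fold change 2.33 ± 1.28, edgeR adjusted p = 0.205). It was called higher without control replicate 2 and with quantile scaling (edgeR and limma adjusted p = 0.00813 and 0.0126). PNH1 (LOC_Os06g39640), the rice PINHEAD ARGONAUTE protein of the vascular tissue and shoot apex, had 184 and 275 CPM at initiation, against 405 and 357 CPM in control (log2 fold change -0.73 ± 0.22, edgeR adjusted p = 0.0402). PNH1 lost its call without the averaged initiation sample, control replicate 1, outgrowth replicate 1 or 2 (edgeR adjusted p = 0.15, 0.0908, 0.0808 and 0.0809). PNH1 had a log2 fold change of -0.47 without the averaged initiation sample.

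**Figure D2:**
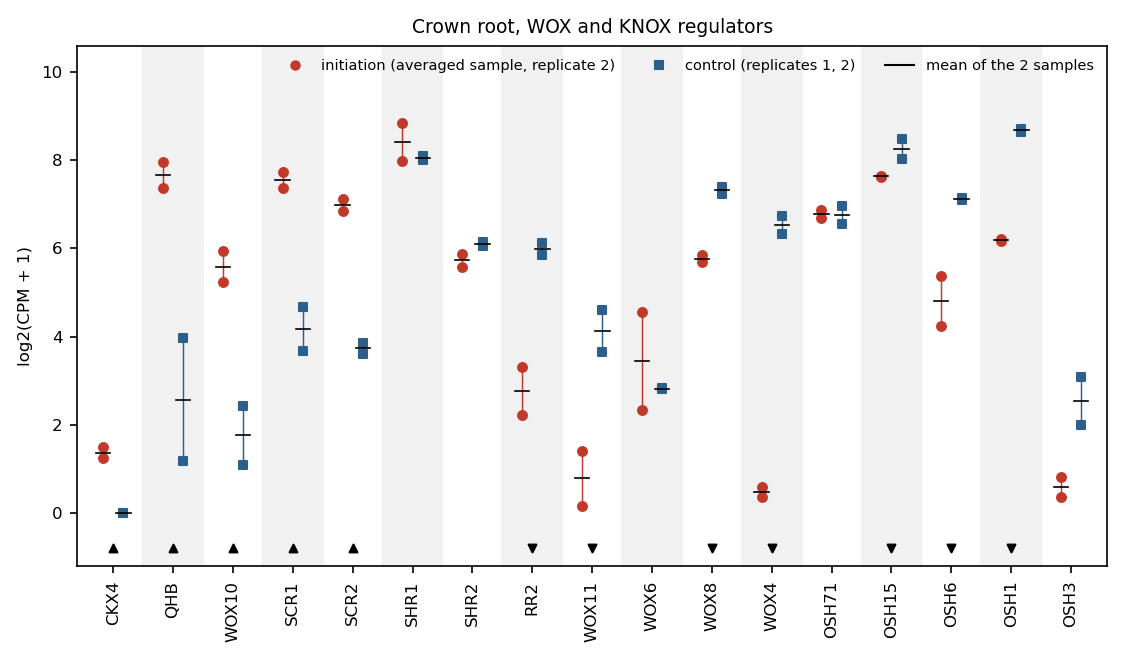
Level of each tested crown root, WOX and KNOX regulator as log2(CPM + 1) in the 2 initiation samples (red circles, left) and the 2 control libraries (blue squares, right), with a bar at the mean. Triangles at the foot mark genes called higher (up) or lower (down) by edgeR. QHB, WOX10, SCR1 and SCR2 lie higher at initiation, and WOX4, WOX11, RR2 and OSH1 lie lower.

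Auxin inactivation and synthesis genes were among the genes that rose. Each GH3 synthetase tested, an enzyme that conjugates auxin to amino acids and so inactivates it, was high in primordia and almost absent from control. GH3-8 (LOC_Os07g40290) had 338 and 653 CPM at initiation, against 0.578 and 0.688 CPM in control (log2 fold change 9.54 ± 0.47, edgeR adjusted p = 8.98e-05). GH3-1 (LOC_Os01g57610) had 33.2 and 103 CPM at initiation, against 1.16 and 1.26 CPM in control (log2 fold change 5.79 ± 0.64, edgeR adjusted p = 0.000947), and GH3-2 (LOC_Os01g55940) had 25.7 and 10.2 CPM at initiation, against 0 and 0.115 CPM in control (ratio of pooled counts 213, exact 95% interval 72.6 to 1040.0, edgeR adjusted p = 0.00122). No initiation sample overlapped with control in any of the 3, although the initiation samples differed from each other in each. The fourth member of the list, the auxin oxidase DAO, did not pass the test. YUC1 (LOC_Os01g45760), a YUCCA enzyme of the last step of auxin synthesis, had 30.1 and 19.0 CPM at initiation, against 0 and 0.115 CPM in control (ratio of pooled counts 289, exact 95% interval 98.4 to 1400.0, edgeR adjusted p = 0.000726). FIB (LOC_Os01g07500), the tryptophan aminotransferase of the step before it, was lower, with 11.7 and 4.53 CPM at initiation, against 37.9 and 28.4 CPM in control (log2 fold change -2.03 ± 0.48, edgeR adjusted p = 0.017). The 2 enzymes of 1 pathway thus differed in opposite directions. FIB did not pass without initiation replicate 2 (edgeR adjusted p = 0.0569).

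Among auxin carriers, 1 of 5 tested rose. PIN1c (LOC_Os11g04190), a PIN protein that exports auxin from cells, had 142 and 209.9 CPM at initiation, against 58.4 and 78.7 CPM in control (log2 fold change 1.36 ± 0.25, edgeR adjusted p = 0.00686). Both initiation samples were above both control libraries. PIN1c missed the threshold without initiation replicate 2 (edgeR adjusted p = 0.0507). Other carriers were called under some alternatives. PIN1a was called lower without control replicate 1 (edgeR adjusted p = 0.0406). PIN10a was called higher without control replicate 2 (edgeR adjusted p = 0.00896), and also with DESeq2, both limma fits and no low-count filter.

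Aux/IAA repressors changed in both directions. Of 25 tested, 7 rose, 8 fell and 10 did not pass the test, and the median log2 fold change was -0.46 against -0.05 over all genes tested. Without initiation replicate 2, 4 rose. IAA26 (LOC_Os09g35870) was abundant in primordia and unread in control, with 94.5 and 102 CPM at initiation, against no read in control (edgeR adjusted p = 8.98e-05, at least 1139.8-fold higher). IAA20 (LOC_Os06g07040) had 12.7 and 19.4 CPM at initiation, against 0 and 0.344 CPM in control (log2 fold change 6.11 ± 0.92, edgeR adjusted p = 0.00297), and IAA12 (LOC_Os03g43410) had 97.9 and 166 CPM at initiation, against 22.5 and 13.9 CPM in control (log2 fold change 2.87 ± 0.35, edgeR adjusted p = 0.00135). These 3 led the genes that rose. At the other end, IAA14 (LOC_Os03g58350) had no read at initiation, against 22.4 and 24.2 CPM in control (edgeR adjusted p = 0.000758, at least 235-fold lower). IAA25 (LOC_Os08g01780) had 5.64 and 4.39 CPM at initiation, against 154 and 77.3 CPM in control (log2 fold change -4.52 ± 0.44, edgeR adjusted p = 0.000657), and IAA24 (LOC_Os07g08460) had 12.5 and 22.1 CPM at initiation, against 157 and 289 CPM in control (log2 fold change -3.69 ± 0.40, edgeR adjusted p = 0.000877). The family thus held members with reads in 1 tissue and none in the other in each direction. IAA14 had enough reads to be tested through the control libraries alone, so it could only come out lower. The remaining calls, IAA6, IAA7, IAA19 and IAA23 higher and IAA2, IAA13, IAA17, IAA21 and IAA30 lower, had log2 fold changes from 1.52 to 2.61 and from -2.97 to -2.06. IAA20 had a fitted log2 fold change of 10.66 without control replicate 2. Control replicate 1 had no read of it, so this value depends on the fit and is no bound. IAA9, not called as reported, was called higher with DESeq2, both limma fits, no low-count filter and a replicate block. Its log2 fold changes there were 2.66 to 4.48.

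Auxin response factors, the transcription factors that Aux/IAA proteins hold back, mostly fell or did not pass the test. Of 22 tested, 2 rose and 11 fell, with a median of -0.49. ARF10 (LOC_Os04g43910) had 37.6 and 34.9 CPM at initiation, against 0.347 and 0.153 CPM in control (log2 fold change 7.37 ± 0.49, edgeR adjusted p = 0.000179). It was almost unread in control. ARF16 (LOC_Os06g09660) had 37.0 and 77.3 CPM at initiation, against 22.8 and 5.92 CPM in control (log2 fold change 2.02 ± 0.64, edgeR adjusted p = 0.0474). Among those that fell, ARF1 (LOC_Os01g13520) had 18.3 and 7.32 CPM at initiation, against 93.4 and 65.0 CPM in control (log2 fold change -2.63 ± 0.47, edgeR adjusted p = 0.00565), ARF6 (LOC_Os02g06910) had 62.8 and 51.3 CPM at initiation, against 302 and 173 CPM in control (log2 fold change -2.06 ± 0.28, edgeR adjusted p = 0.00204), and ARF22 (LOC_Os10g33940) had 4.70 and 8.37 CPM at initiation, against 35.5 and 17.9 CPM in control (log2 fold change -2.03 ± 0.47, edgeR adjusted p = 0.0155). These 5 genes were picked among called genes without overlap between the groups, so their separation adds nothing to the calls. The other 8 that fell had log2 fold changes of -2.00 (ARF24) to -0.56 (ARF23). ARF16 lost its call without the averaged initiation sample, initiation replicate 2, control replicate 2, outgrowth replicate 1 or 2 (edgeR adjusted p = 0.0709, 0.262, 0.06, 0.0709 and 0.0725). ARF22 did not pass without the averaged initiation sample (edgeR adjusted p = 0.0831). ARF16 had a log2 fold change of 3.25 without control replicate 1.

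Cytokinin genes fell or did not pass the test, apart from CKX4. Of 7 type-A response regulators tested, which cytokinin induces and which dampen its signal, 2 fell and none rose: RR2 as above, and RR9 (LOC_Os11g04720) with 2.38 and 6.77 CPM at initiation, against 36.9 and 20.2 CPM in control (log2 fold change -2.64 ± 0.61, edgeR adjusted p = 0.0151). The share of type-A regulators called, 28.6%, was about the 30.4% over all genes tested, so the count says nothing particular about them. RR9 has a close copy, RR10, which did not pass the test, and reads may have been divided between them. RR10 was called lower with DESeq2, limma on log2(CPM + 1) and a filter of 5 CPM, with log2 fold changes of -1.53, -1.56 and -1.59. Of 3 receptor kinases, 2 fell. HK3 (LOC_Os01g69920) had 38.1 and 35.6 CPM at initiation, against 121 and 64.7 CPM in control (log2 fold change -1.33 ± 0.32, edgeR adjusted p = 0.0173), and HK5 (LOC_Os10g21810) had 20.7 and 11.4 CPM at initiation, against 65.7 and 34.2 CPM in control (log2 fold change -1.63 ± 0.43, edgeR adjusted p = 0.0245). In each receptor both control libraries were above both initiation samples. Of 5 genes of cytokinin metabolism tested, CKX4 was called, the median log2 fold change was 0.00 and the range -2.30 to 4.21, with CKX4 at its lower bound. These counts moved with single libraries. Without control replicate 2, 3 of 4 tested were called higher, CKX4 with CKX9 and CKX11 (edgeR adjusted p = 0.0204 and 0.0327), while without control replicate 1 CKX11 was called lower (edgeR adjusted p = 0.0261). None was called with either initiation sample or either outgrowth library left out. RR9 missed the threshold without the averaged initiation sample (edgeR adjusted p = 0.0565). HK3 lost its call without the averaged initiation sample or initiation replicate 2 (edgeR adjusted p = 0.0806 and 0.104). HK5 did not pass without initiation replicate 2, control replicate 1, outgrowth replicate 1 or 2 (edgeR adjusted p = 0.138, 0.0652, 0.0507 and 0.0517). HK3 had a log2 fold change of -0.83 without control replicate 1.

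**Figure D3:**
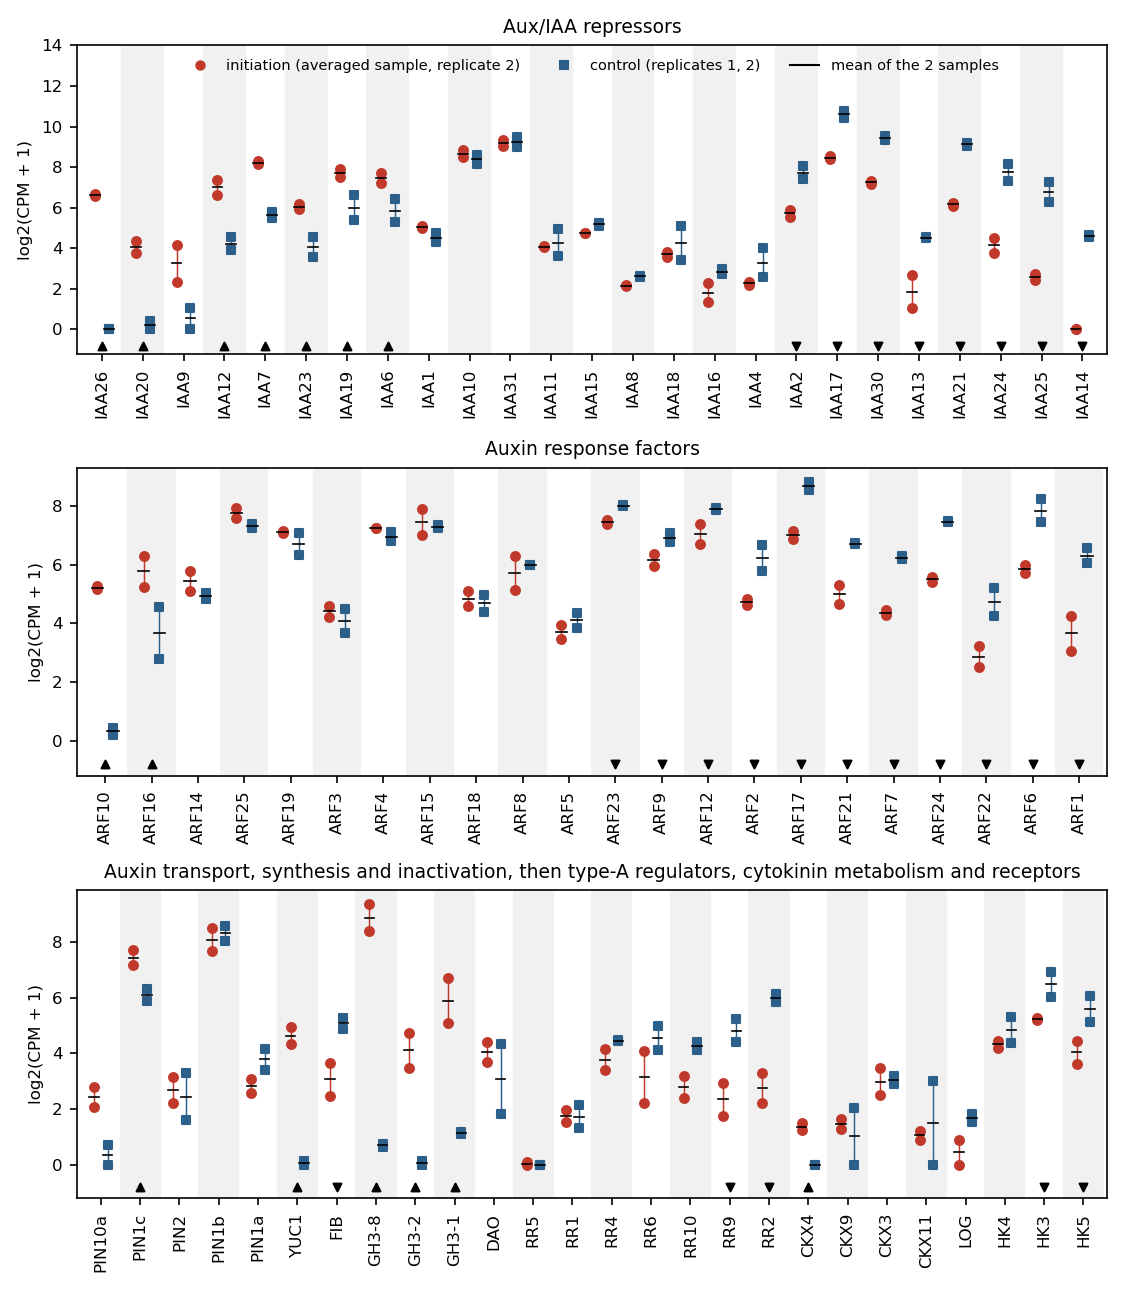
Level of each tested auxin and cytokinin gene as log2(CPM + 1) in the 2 initiation samples (red circles, left) and the 2 control libraries (blue squares, right), with a bar at the mean and triangles for genes called higher or lower by edgeR. Aux/IAA members run from IAA26, unread in control, to IAA14, unread at initiation, and GH3-8 and YUC1 are near 0 in control.

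Gibberellin genes fell in 4 of 7 members tested, and none rose (median -2.40). Those that fell were synthesis enzymes and the DELLA repressor of the response. The early oxidase KO2 (LOC_Os06g37364) had 2.51 and 0.140 CPM at initiation, against 90.0 and 64.4 CPM in control (log2 fold change -5.83 ± 0.92, edgeR adjusted p = 0.00357). The next oxidase, KAO (LOC_Os06g02019), had no read at initiation, against 9.60 and 7.18 CPM in control (edgeR adjusted p = 0.0131, at least 84.7-fold lower). It had enough reads to be tested through the control libraries alone, so it could only come out lower. SD1 (LOC_Os01g66100), the GA20 oxidase changed in semi-dwarf rice, was low in all libraries, with 0.251 and 0 CPM at initiation, against 4.51 and 1.87 CPM in control (log2 fold change -4.53 ± 1.38, edgeR adjusted p = 0.0419). SLR1 (LOC_Os03g49990), the DELLA repressor, had 59.0 and 34.5 CPM at initiation, against 207 and 284 CPM in control (log2 fold change -2.40 ± 0.29, edgeR adjusted p = 0.00135). Libraries of the groups were apart in each of the 4, and without initiation replicate 2 the count was 2. KAO missed the threshold without the averaged initiation sample or initiation replicate 2 (edgeR adjusted p = 0.0587 and 0.0632). SD1 lost its call without initiation replicate 2, control replicate 1, outgrowth replicate 1 or 2 (edgeR adjusted p = 0.105, 0.0594, 0.105 and 0.108). KO2 had a log2 fold change of -9.02 without the averaged initiation sample. SD1 had a fitted log2 fold change of -8.53 without the averaged initiation sample. Initiation replicate 2 had no read of SD1, so this value depends on the fit and is no bound.

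Brassinosteroid genes rose in 3 of 7 members tested, and 1 fell. BRD1 (LOC_Os03g40540), the oxidase of the last steps of brassinosteroid synthesis, had 50.6 and 53.9 CPM at initiation, against 1.73 and 4.36 CPM in control (log2 fold change 4.03 ± 0.45, edgeR adjusted p = 0.000972). Control held little of it. GSK2 (LOC_Os05g11730), a kinase that represses brassinosteroid signalling, had 184 and 213 CPM at initiation, against 82.7 and 108 CPM in control (log2 fold change 1.05 ± 0.20, edgeR adjusted p = 0.00706), and the receptor BRI1 (LOC_Os01g52050) had 201 and 198 CPM at initiation, against 138 and 125 CPM in control (log2 fold change 0.60 ± 0.17, edgeR adjusted p = 0.0298). BZR1 (LOC_Os07g39220), the transcription factor that GSK2 restrains, had 49.9 and 43.0 CPM at initiation, against 91.0 and 104 CPM in control (log2 fold change -1.07 ± 0.21, edgeR adjusted p = 0.00779). The changes of GSK2, BRI1 and BZR1 were small but apart from the spread between libraries. BRI1 did not pass without the averaged initiation sample, initiation replicate 2, outgrowth replicate 1 or 2 (edgeR adjusted p = 0.0825, 0.0857, 0.0862 and 0.0859). BZR1 missed the threshold without initiation replicate 2 (edgeR adjusted p = 0.0507). D11, a cytochrome P450 of brassinosteroid synthesis, was called lower without control replicate 2 (edgeR adjusted p = 0.00998).

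In strigolactone signalling, which restrains branching, the receptor D14 (LOC_Os03g10620) had 17.6 and 15.5 CPM at initiation, against 69.3 and 80.0 CPM in control (log2 fold change -2.18 ± 0.27, edgeR adjusted p = 0.00148), and the F-box protein D3 (LOC_Os06g06050) had 18.8 and 18.5 CPM at initiation, against 53.7 and 33.1 CPM in control (log2 fold change -1.22 ± 0.36, edgeR adjusted p = 0.0382). Both members tested were lower at initiation in every sample. Of 5 ethylene genes tested, 2 fell and none rose. The share of ethylene genes called was 40.0%, against 30.4% over all genes tested. The receptor ERS1 (LOC_Os03g49500) had 83.0 and 79.7 CPM at initiation, against 115 and 139 CPM in control (log2 fold change -0.64 ± 0.19, edgeR adjusted p = 0.0351), and the transcription factor EIL1 (LOC_Os03g20790) had 22.5 and 13.7 CPM at initiation, against 56.7 and 44.8 CPM in control (log2 fold change -1.48 ± 0.33, edgeR adjusted p = 0.0138). D3 lost its call without the averaged initiation sample, initiation replicate 2, control replicate 1, outgrowth replicate 1 or 2 (edgeR adjusted p = 0.134, 0.151, 0.0906, 0.0719 and 0.0674). ERS1 did not pass without the averaged initiation sample, initiation replicate 2, control replicate 2, outgrowth replicate 1 or 2 (edgeR adjusted p = 0.0954, 0.128, 0.0817, 0.0979 and 0.0989). EIL1 missed the threshold without initiation replicate 2 (edgeR adjusted p = 0.0738). The receptor ETR3 was called lower without control replicate 1 and higher without control replicate 2 (edgeR adjusted p = 0.0124 and 0.0211).

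Cell division genes for the most part rose. Each of 9 DNA replication genes tested rose (median 1.54), and of 13 mitosis genes 8 rose, 1 fell and 4 did not pass the test (median 1.26), against -0.05 over all genes tested. The lists were drawn up with earlier results of these data known, so these counts and medians are a description. Without initiation replicate 2, 5 mitosis genes and 9 replication genes rose. PCNA (LOC_Os02g56130), the sliding clamp of DNA polymerase, had 1039.5 and 1314 CPM at initiation, against 219 and 352 CPM in control (log2 fold change 2.04 ± 0.27, edgeR adjusted p = 0.00182). RFC3 (LOC_Os02g53500), a subunit of its loader, had 87.7 and 140.1 CPM at initiation, against 15.7 and 18.8 CPM in control (log2 fold change 2.71 ± 0.28, edgeR adjusted p = 0.000785), and ORC1 (LOC_Os06g08790) of the origin recognition complex had 119.9 and 134 CPM at initiation, against 40.0 and 32.0 CPM in control (log2 fold change 1.82 ± 0.25, edgeR adjusted p = 0.00193). All were picked among called genes without overlap, so their place above control in both initiation samples adds nothing to the calls. The 6 MCM helicase subunits rose with log2 fold changes of 1.05 (MCM5) to 1.60 (MCM4). Of the B-type cyclins, which drive entry into mitosis, CYCB2;2 (LOC_Os06g51110) had 154 and 283 CPM at initiation, against 31.6 and 57.3 CPM in control (log2 fold change 2.29 ± 0.38, edgeR adjusted p = 0.00451), CYCB1;1 (LOC_Os01g59120) had 211 and 325 CPM at initiation, against 49.8 and 70.9 CPM in control (log2 fold change 2.14 ± 0.30, edgeR adjusted p = 0.00212), and CYCB2;1 (LOC_Os04g47580) had 155 and 169 CPM at initiation, against 24.3 and 58.5 CPM in control (log2 fold change 1.95 ± 0.40, edgeR adjusted p = 0.00959). CYCB1;5, the centromere histone CENH3, CYCA3;1, CDKB1;1 and CDKB2;1 rose by 1.01 to 1.74 on the log2 scale. KRP1 (LOC_Os02g52480), an inhibitor of cyclin-dependent kinases, went the other way, with 10.7 and 12.3 CPM at initiation, against 79.8 and 77.0 CPM in control (log2 fold change -2.76 ± 0.26, edgeR adjusted p = 0.000596). CDKA;1, CDKA;2, CKS1 and CYCA2;1 did not pass the test. With DESeq2 and with no low-count filter CDKA;1 (log2 fold changes 0.75 and 0.77) and CYCA2;1 (0.76 and 0.8) were called higher. CDKA;1 was also called higher with a replicate block (0.69). CYCB2;1 lost its call without initiation replicate 2 (edgeR adjusted p = 0.062).

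Of 4 DNA methylation genes tested, 3 rose, with log2 fold changes of 0.69 to 1.56. CMT3a (LOC_Os10g01570), a chromomethylase, had 177 and 230.2 CPM at initiation, against 63.1 and 74.9 CPM in control (log2 fold change 1.56 ± 0.24, edgeR adjusted p = 0.00345). MET1b (LOC_Os07g08500), a maintenance methyltransferase, had 104 and 145 CPM at initiation, against 69.1 and 76.6 CPM in control (log2 fold change 0.77 ± 0.24, edgeR adjusted p = 0.0429), and the de novo methyltransferase DRM2 (LOC_Os03g02010) had 96.5 and 75.0 CPM at initiation, against 55.2 and 50.9 CPM in control (log2 fold change 0.69 ± 0.21, edgeR adjusted p = 0.0385). Of 10 ARGONAUTE genes tested 30.0% were called, about the share over all genes, and 2 rose, both of the AGO4 type that guides DNA methylation. AGO4a (LOC_Os01g16870) had 711 and 751 CPM at initiation, against 268 and 275 CPM in control (log2 fold change 1.43 ± 0.16, edgeR adjusted p = 0.000969), and AGO4b (LOC_Os04g06770) had 526 and 538 CPM at initiation, against 319 and 299 CPM in control (log2 fold change 0.78 ± 0.16, edgeR adjusted p = 0.00888). PNH1 fell, as given above, and 7 did not pass the test. In the 5 genes that rose, both initiation samples were above both control libraries. MET1b did not pass without initiation replicate 2, control replicate 1, outgrowth replicate 1 or 2 (edgeR adjusted p = 0.218, 0.103, 0.0762 and 0.0788). DRM2 missed the threshold without the averaged initiation sample, outgrowth replicate 1 or 2 (edgeR adjusted p = 0.157, 0.108 and 0.109). Without outgrowth replicate 1 or 2, 1 DNA methylation gene was called. MET1b had a log2 fold change of 0.51 without initiation replicate 2.

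Growth-regulating factors, which promote cell proliferation in young organs, rose in 3 and fell in 2 of 10 members tested. The share called was 50.0%, against 30.4% over all genes tested. GRF12 (LOC_Os04g48510) had 17.7 and 14.3 CPM at initiation, against no read in control (edgeR adjusted p = 0.0008, at least 186-fold higher). GRF6 (LOC_Os03g51970) had 158 and 65.3 CPM at initiation, against 24.1 and 19.1 CPM in control (log2 fold change 2.38 ± 0.39, edgeR adjusted p = 0.00421), and GRF10 (LOC_Os02g45570) had 11.4 and 2.30 CPM at initiation, against 0 and 0.611 CPM in control (log2 fold change 4.09 ± 1.03, edgeR adjusted p = 0.0207). GRF12 had no read in control, and the 2 initiation samples of GRF6 and GRF10 were unequal. GRF3 (LOC_Os04g51190) had 1.25 and 0.0697 CPM at initiation, against 15.0 and 17.7 CPM in control (log2 fold change -4.59 ± 1.15, edgeR adjusted p = 0.0248), and GRF7 (LOC_Os12g29980) had 25.6 and 22.3 CPM at initiation, against 79.4 and 75.8 CPM in control (log2 fold change -1.70 ± 0.22, edgeR adjusted p = 0.00154). GRF10 lost its call without the averaged initiation sample or outgrowth replicate 1 (edgeR adjusted p = 0.119 and 0.0508). GRF10 had a log2 fold change of 2.52 without the averaged initiation sample and a fitted one of 9.45 without control replicate 2. Control replicate 1 had no read of GRF10, so the value of 9.45 depends on the fit and is no bound. GRF3 had a log2 fold change of -7.71 without the averaged initiation sample.

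Housekeeping genes were not level between the groups. The elongation factor EEF1A (LOC_Os03g08010) had 1562 and 1488 CPM at initiation, against 862 and 839 CPM in control (log2 fold change 0.84 ± 0.15, edgeR adjusted p = 0.00609), and the ubiquitin fusion gene UBQ5 (LOC_Os01g22490) had 991 and 1106 CPM at initiation, against 391 and 546 CPM in control (log2 fold change 1.16 ± 0.22, edgeR adjusted p = 0.00664), while the actin gene ACT1 did not pass the test (log2 fold change -0.35, edgeR adjusted p = 0.216). Under quantile scaling EEF1A missed the threshold, with a log2 fold change of 0.30, and ACT1 was called lower, with one of -0.88 (limma adjusted p = 0.00903). EEF1A and UBQ5 have close copies in the rice genome, and how reads shared between copies were counted is not given in the sources used here.

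**Figure D4:**
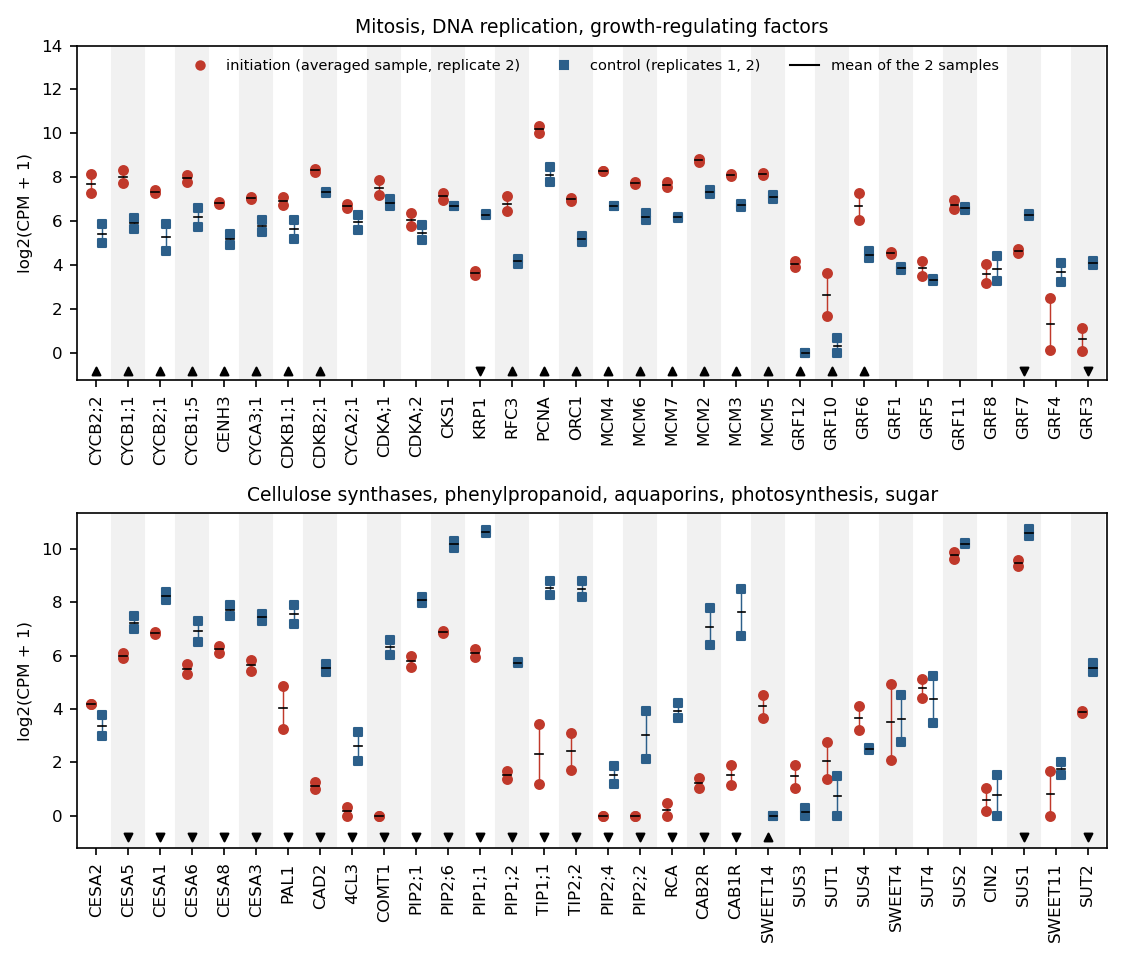
Level of each tested gene of cell division and growth (upper panel) and of walls, water channels, photosynthesis and sugar (lower panel) as log2(CPM + 1), in the 2 initiation samples (red circles, left) and the 2 control libraries (blue squares, right), with a bar at the mean. Triangles mark genes called higher or lower by edgeR, with 9 of 9 replication genes higher and 8 of 8 aquaporins lower. PIP2;2 and PIP2;4 among the aquaporins could be tested through control reads alone.

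Water channel genes were lower at initiation. Each of 8 aquaporins tested fell, with a median of -4.68 (PIP2;2 and PIP2;4 at their bounds). PIP2;2 and PIP2;4 had enough reads to be tested through the control libraries alone, so they could only come out lower. Aquaporins are water channels, TIP proteins of the vacuole and PIP proteins of the plasma membrane. The vacuolar channels TIP2;2 (LOC_Os06g22960) and TIP1;1 (LOC_Os03g05290) stood at 7.53 and 2.30 CPM at initiation and 289 and 439 CPM in control (log2 fold change -6.20 ± 0.53, edgeR adjusted p = 0.000418), and at 9.78 and 1.26 CPM at initiation and 306 and 445 CPM in control (log2 fold change -6.07 ± 0.77, edgeR adjusted p = 0.00151). Both were abundant in control and scarce in primordia. PIP2;2 (LOC_Os02g41860) had no read at initiation, against 14.1 and 3.32 CPM in control (edgeR adjusted p = 0.0118, at least 87.9-fold lower). PIP1;1, PIP1;2, PIP2;1 and PIP2;6 fell with log2 fold changes of -4.81 (PIP1;2) to -2.30 (PIP2;1), and PIP2;4, with no read at initiation, was at least 19.8-fold lower. A further 6 aquaporins were not tested for want of reads. PIP2;2 did not pass without the averaged initiation sample or initiation replicate 2 (edgeR adjusted p = 0.0517 and 0.0564).

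Cellulose synthases of the primary wall, which growing cells lay down, fell in 5 of 6 members tested (median -1.44). CESA3 (LOC_Os07g24190) had 56.1 and 41.9 CPM at initiation, against 188 and 157 CPM in control (log2 fold change -1.82 ± 0.22, edgeR adjusted p = 0.00127), and CESA1 (LOC_Os05g08370) had 116 and 112 CPM at initiation, against 336 and 267 CPM in control (log2 fold change -1.41 ± 0.19, edgeR adjusted p = 0.00181). In CESA5 (LOC_Os03g62090) the values were 67.5 and 58.9 CPM at initiation and 179 and 125 CPM in control (log2 fold change -1.27 ± 0.23, edgeR adjusted p = 0.00609), in CESA6 (LOC_Os07g14850) 38.3 and 50.3 CPM at initiation and 158 and 89.5 CPM in control (log2 fold change -1.48 ± 0.30, edgeR adjusted p = 0.00992), and in CESA8 (LOC_Os07g10770) 80.8 and 67.7 CPM at initiation and 237 and 178 CPM in control (log2 fold change -1.48 ± 0.22, edgeR adjusted p = 0.0026). All 5 were lower in both initiation samples than in either control library. Of 4 secondary wall genes 1 was tested, and it was not called (log2 fold change -0.31). CESA5 missed the threshold without initiation replicate 2 (edgeR adjusted p = 0.0525). CESA6 lost its call without the averaged initiation sample (edgeR adjusted p = 0.0715). CESA2, the sixth, was called higher without control replicate 2 (edgeR adjusted p = 0.0241).

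Phenylpropanoid enzymes, which supply lignin and other phenolics, fell in each of 4 members tested (median -5.28). COMT1 (LOC_Os08g06100), a caffeate methyltransferase, had no read at initiation, against 94.2 and 64.3 CPM in control (edgeR adjusted p = 0.000416, at least 800.1-fold lower). CAD2 (LOC_Os02g09490), the cinnamyl alcohol dehydrogenase of lignin monomer synthesis, had 1.38 and 0.977 CPM at initiation, against 49.8 and 40.3 CPM in control (log2 fold change -5.24 ± 0.39, edgeR adjusted p = 0.000273). The entry enzyme PAL1 (LOC_Os02g41630) had 27.7 and 8.58 CPM at initiation, against 234 and 146 CPM in control (log2 fold change -3.38 ± 0.53, edgeR adjusted p = 0.00345), and the CoA ligase 4CL3 (LOC_Os02g08100) had 0.251 and 0 CPM at initiation, against 7.86 and 3.13 CPM in control (log2 fold change -5.32 ± 1.40, edgeR adjusted p = 0.0245). The groups were apart in each gene. CASP1, the Casparian strip protein, had no read at initiation, against 5.20 and 4.74 CPM in control (edgeR adjusted p = 0.0116, at least 50.2-fold lower). It had enough reads to be tested through the control libraries alone, so it could only come out lower. 4CL3 did not pass without initiation replicate 2, outgrowth replicate 1 or 2 (edgeR adjusted p = 0.0738, 0.0581 and 0.0616). 4CL3 had a fitted log2 fold change of -9.32 without the averaged initiation sample. Initiation replicate 2 had no read of it, so this value depends on the fit and is no bound.

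Photosynthesis genes were close to absent from the primordia, and each of 3 tested fell (median -6.80). RCA among them had enough reads to be tested through the control libraries alone, so it could only come out lower. The light-harvesting genes CAB1R (LOC_Os09g17740) and CAB2R (LOC_Os01g41710) stood at 1.19 and 2.72 CPM at initiation and 106 and 357 CPM in control (log2 fold change -6.90 ± 0.70, edgeR adjusted p = 0.000717), and at 1.63 and 1.05 CPM at initiation and 83.3 and 217 CPM in control (log2 fold change -6.80 ± 0.65, edgeR adjusted p = 0.000599). RCA (LOC_Os11g47970), RuBisCO activase, had 0.376 and 0 CPM at initiation, against 17.5 and 11.5 CPM in control (log2 fold change -6.17 ± 1.16, edgeR adjusted p = 0.00698). The control libraries differed from each other in the light-harvesting genes, with control replicate 2 the higher. CAB1R and CAB2R are close copies, so reads may have been divided between them. RCA had a fitted log2 fold change of -10.72 without the averaged initiation sample. Initiation replicate 2 had no read of it, so this value depends on the fit and is no bound.

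Sugar genes for the most part did not pass the test, with 1 higher and 2 lower of 11 tested. The share called, 27.3%, was near the 30.4% over all genes tested. SWEET14 (LOC_Os11g31190), a sugar exporter, had 11.7 and 22.2 CPM at initiation, against no read in control (edgeR adjusted p = 0.00135, at least 196-fold higher). SUT2 (LOC_Os12g44380), a sucrose transporter, had 13.4 and 14.2 CPM at initiation, against 51.3 and 40.5 CPM in control (log2 fold change -1.74 ± 0.30, edgeR adjusted p = 0.00488), and SUS1 (LOC_Os03g28330), a sucrose synthase, had 651 and 756 CPM at initiation, against 1718 and 1408 CPM in control (log2 fold change -1.15 ± 0.19, edgeR adjusted p = 0.00398). Reads of SWEET14 were in primordia alone among these 4 samples. The count of higher genes was 3 without control replicate 2, where SUT4 and SUS3 joined it (edgeR adjusted p = 0.0324 and 0.0263), and 3 with quantile scaling, where SUS3 and SUS4 did (limma adjusted p = 0.0202 and 0.0331). Of 3 mineral transporters tested, the zinc and cadmium pump HMA2 (LOC_Os06g48720) fell, with 0.251 and 0.558 CPM at initiation, against 27.3 and 8.86 CPM in control (log2 fold change -5.46 ± 0.92, edgeR adjusted p = 0.00456). The share of mineral transporters called, 33.3%, was near the 30.4% over all genes tested. HMA2 had enough reads to be tested through the control libraries alone, so it could only come out lower. With either control library left out it reached 1 CPM in fewer than 2 samples and was not tested. The phosphate transporter PT1 had a fitted log2 fold change of -9.2 without the averaged initiation sample. Of 2 stress genes tested, the alcohol dehydrogenase ADH1 (LOC_Os11g10480) fell, with 217 and 249 CPM at initiation, against 306 and 399.8 CPM in control (log2 fold change -0.60 ± 0.19, edgeR adjusted p = 0.0493). ADH1 missed the threshold without the averaged initiation sample, initiation replicate 2, control replicate 2, outgrowth replicate 1 or 2 (edgeR adjusted p = 0.19, 0.106, 0.177, 0.103 and 0.103). ADH1 had a log2 fold change of -0.35 without control replicate 2.

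The same genes were followed into outgrowth, when the primordium grows out of the stem. Between outgrowth and initiation 3.08% of all genes tested were called, and 21 of the 93 named genes tested were, 17 lower and 4 higher at outgrowth. The initiation libraries serve in both comparisons, so the count is a description. WOX10 had 1.67 and 0.621 CPM at outgrowth, where it was far below both initiation samples. GH3-8 had 33.6 and 26.6 CPM and GH3-1 2.54 and 3.46 CPM at outgrowth, again below initiation. QHB, with 20.5 and 20.3 CPM at outgrowth, did not pass this test (edgeR adjusted p = 0.0647). SHR1 and SHR2, which did not differ past the threshold between initiation and control, had 62.5 and 57.1 CPM and 13.6 and 13.0 CPM at outgrowth, with edgeR adjusted p = 0.00881 and 0.011 against initiation. PIN1c had 26.0 and 28.0 CPM at outgrowth, and PLA1 had 0.635 and 0.444 CPM. OSH1 was lower still than at initiation, with 14.9 and 13.1 CPM. CAD2 had 18.1 and 16.9 CPM and TIP2;2 had 61.9 and 64.4 CPM at outgrowth, which placed both between initiation and control. IAA26, ARF10 and GRF12, almost or wholly unread in control, kept 39.8 and 36.3 CPM, 43.5 and 32.9 CPM and 7.38 and 9.14 CPM at outgrowth. WOX11 had 0.635 CPM and no read there.

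**Figure D5:**
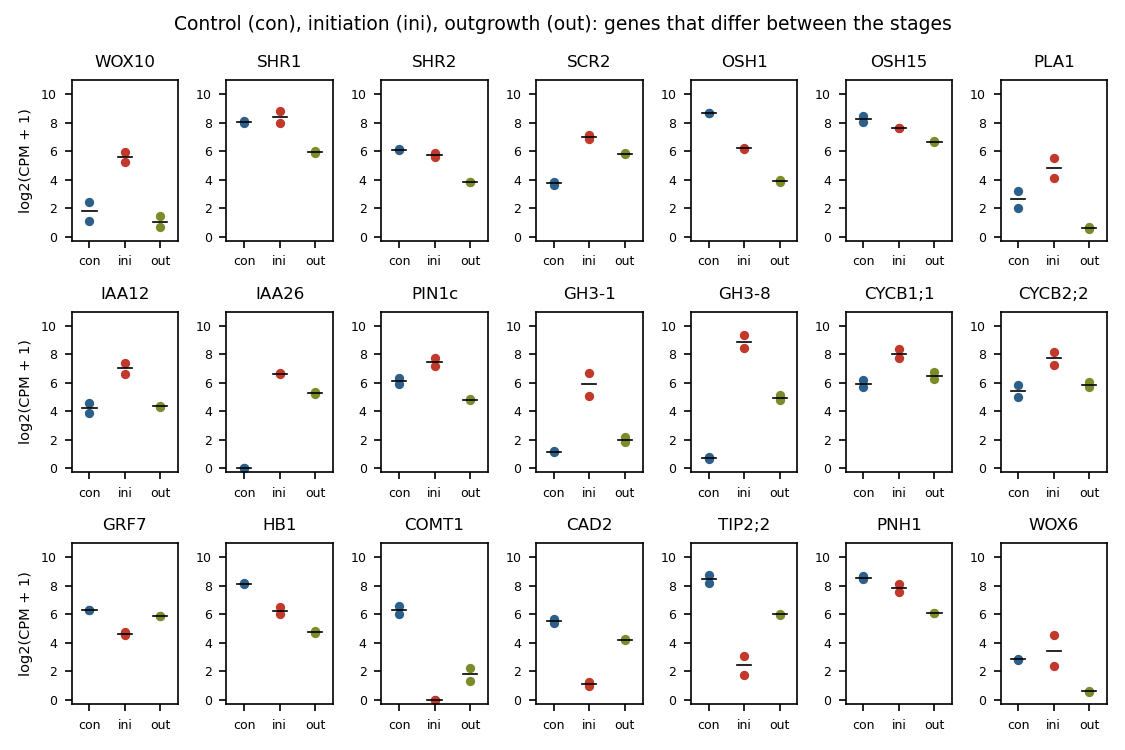
Level of the 21 named genes that differ between the stages, as log2(CPM + 1), in control (con), initiation (ini) and outgrowth (out), with 2 samples each as points and a bar at their mean. Of these, 17 are lower and 4 (GRF7, COMT1, CAD2 and TIP2;2) higher at outgrowth than at initiation.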

How the data were processed

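Per the labels' protocols, a PicoPure kit yielded the RNA of the captured cells and a SMARTer low-input kit the libraries. The submitters' processing notes name STAR as a tool. STAR's version, the counter, the use of strand, the genome build and the annotation: not given in the sources used here. The deposited values were read as counts per gene although their column is headed FPKM, because they are whole numbers that sum to 8351775 to 25448025 per library. Genes missing from a table were given 0.

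Initiation replicates 1 and 3 were averaged and rounded. The remaining 6 samples were scaled by TMM and fitted jointly with edgeR 4.0.16 (glmQLFit, glmQLFTest, R 4.3.3), keeping genes that reached 1 CPM in 2 or more samples, with two-sided p-values adjusted by the Benjamini-Hochberg method. This filter used CPM without the TMM factors. The fit had 3 residual and 4.72 prior degrees of freedom. Each SE is the absolute log2 fold change over the root of its F statistic. A gene with no read in a group was set to a floor of 3 counts per group for its bound (0.0991 CPM at initiation, 0.0862 CPM in control), and one with 1 to 3 reads has a ratio of pooled counts with an exact conditional binomial 95% interval. These cover counting error only. Low values are more precise in deeper libraries. The test was checked on simulated counts. Alternatives used RLE factors, DESeq2 1.42.0, limma 3.58.1, other filters and left-out libraries.

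Gene names rest on published locus assignments checked by symbol, chromosome and gene order against RefSeq assembly ASM3414082v1. For YUC1, HB3, BRD1, EEF1A, PAL1 and UBQ5 the table holds another symbol, which was itself sought by position, so that check is partly circular. Of 356 loci, 90 had no such symbol, 3 lay on another chromosome and 4 were out of order. No RefSeq coordinate was used. Members and lists were chosen with earlier results of these data known. Named in the text are all crown root and WOX members, every called member of lists with up to 5 calls, and otherwise up to 3 per direction with the largest fitted change among called genes without overlap and with a mean of 5 CPM or more in the higher group. PLETHORA and BABY BOOM genes, meant to be named in full, had no paired locus. Further called members appear by range. Genes given only for a call under an alternative were chosen after their values were seen.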

Additional observations from a re-analysis of the deposited data

Results flagged for a closer look

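The change from control differed between the stages for 21 named genes, by edgeR's test of outgrowth against initiation with an adjusted p below 0.05. The values in parentheses are log2 fold changes of outgrowth over initiation. They were negative for WOX10 (-5.38), SHR1 (-2.57), SHR2 (-1.98), SCR2 (-1.16), OSH1 (-2.36), OSH15 (-0.99), PLA1 (-5.82), IAA12 (-2.78), IAA26 (-1.37), PIN1c (-2.70), GH3-1 (-4.50), GH3-8 (-4.04), CYCB1;1 (-1.58), CYCB2;2 (-1.91), HB1 (-1.56), PNH1 (-1.76) and WOX6 (-4.70). They were positive for GRF7 (1.25), COMT1 (8.29), CAD2 (3.88) and TIP2;2 (3.67). The COMT1 value rests on no read at initiation, so it depends on the fit and is no bound. The smallest and largest adjusted p among them were 0.00523 and 0.0461. With 2 samples per group no sample could be tested as standing apart from its group.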

How the results depend on the processing

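Of the 90 named genes called, 60 kept the call and direction in every one of 16 alternatives in which they were tested, 13 lost it in 1 or 2, and 17 in 3 or more. No called gene changed direction. SHR1 and WOX6, not called, changed sign without initiation replicate 2, with log2 fold changes of -0.08 to 0.53 and -0.57 to 1.19 over single left-out replicates. Without the averaged initiation sample they were 0.80, where SHR1 was called higher, and 1.89. With 1 library left out, 3076 to 7970 genes were called, 1451 to 4607 higher and 1625 to 3363 lower, and 92 to 123 list members, 38 to 64 higher and 54 to 65 lower. Without the averaged initiation sample 1760 genes were higher. The smallest total came without initiation replicate 2 and the largest without control replicate 2, where 57.8% of calls were higher, against 47.2% with all libraries. With either control library left out, WOX4, FON1, IAA14, KAO, RCA, PIP2;2, PIP2;4, HMA2 and CASP1 failed the filter of 1 CPM in 2 samples. They were not tested there, whatever their level in control. With all libraries they passed the filter through control alone, so they could only come out lower. Where 1 sample stood for a group, it was assumed to vary like the other groups. The cause was not tested. Under the other settings, counts of calls stayed within 1.5 times the reported ones, and 4096 to 7025 genes were called, with DESeq2 at the upper end and a fit of initiation and control alone at the lower. The call was lost with RLE factors for OSH15, PNH1 and ADH1, with DESeq2 for PIP2;2, with limma on log2(CPM + 1) for MET1b and DRM2, with quantile scaling for EEF1A, without the low-count filter for OSH15, ERS1 and ADH1, with initiation and control alone for OSH15, ARF16, D3, SD1, BRI1, ERS1, GRF10, PNH1, MET1b, DRM2 and ADH1. The median log2 fold change of all genes tested was 0.07 with quantile scaling, against -0.05 as reported, and -0.09 to -0.02 with RLE factors, DESeq2 and limma on log2(CPM + 1). Same-numbered replicates did not deviate together (correlations of 0.00778, 0.0218 and -0.0268), with the averaged initiation sample taken as replicate 1. With 2 samples per group this cannot decide whether samples were paired, and no pairing was used. A replicate block gave 5136 genes called, and 115 list members, and the call was lost for CKX4, OSH15, ARF16, SD1, ERS1, DRM2 and ADH1 (edgeR adjusted p = 0.055 to 0.0869). Low values are limited by depth, with a floor of 0.0862 CPM in control.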
